A study of Mus musculus with 3 samples.

Results

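The cells described here are a small set of Lyz2-positive cells chosen on transcripts of Alox15, Prg4 and 5 partner genes, and 74 of the 84 came from a single library. Both Alox15 and Prg4 were found in 74 of the 84 cells, and 6 cells, 5 of them Matrigel-only, had neither. A cell was counted as a member when it had 200 to 6000 detected genes, at most 5% mitochondrial UMIs and under 1% of its UMIs from Col1a1, Col1a2, Col3a1, Dcn and Lum. It also needed at least 1 UMI of Lyz2 and a UMI of at least 3 of 7 rule genes, which were Alox15, Prg4, F5, Selp, Icam2, Cd5l and Serpinb2. A UMI is a molecular tag that marks 1 captured transcript. Of 21503 cells that passed the gene and mitochondrial limits in 3 libraries, 84 were members, and 74 of these were among the 7297 such cells of the palovarotene library. Since the 7 rule genes were read in the same cells that they chose, every level below is a description and carries no test.

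The study examined heterotopic ossification, the formation of bone in soft tissue, around Matrigel implanted under the abdominal skin of CD-1 female mice aged 6 to 8 weeks. All masses were collected on day 5 and dissociated with dispase, and each group was pooled into 1 droplet library. The Matrigel-only mice had scaffold without growth factor and were given nothing by mouth. The Vehicle and Palo masses contained recombinant human BMP2, and those mice received corn oil with DMSO or palovarotene at 4 mg/kg, an agonist of the retinoic acid receptor gamma. The libraries held 44252421, 46317250 and 46901673 UMIs over 9249, 6065 and 7905 barcodes for Matrigel-only, Vehicle and Palo. With 1 pooled library per group, a difference between groups cannot be told apart from a difference between libraries, masses or animals, and all intervals cover counting error only.

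Macrophages are phagocytes whose gene programs depend on the tissue in which they live. Those that reside in the peritoneal cavity are known for the transcription factor Gata6, for the lipid-oxidising enzyme Alox15 and for adhesion and coagulation genes such as Icam2, Selp and F5, and they lie close to the abdominal wall. Macrophages of connective tissue are known instead for receptors such as Mrc1 and for chemokines such as Ccl8.

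The members stood apart from the rest of the library in the number of rule genes per cell. In the Palo library, 5176 Lyz2-positive cells had none of the 7 rule genes, 687 had 1 and 36 had 2. Only 2 had 3 and 1 had 4, and then the count rose again to 3 cells with 5, 22 with 6 and 46 with all 7. The Matrigel-only library had 5751, 610 and 60 cells with 0, 1 and 2 rule genes, then 7 with 3 and 1 with 5. The Vehicle library had 3249, 233 and 9 cells with 0, 1 and 2, and then 2 cells with all 7. The Palo cells thus fell into a large group with few rule genes and a small group with 5 or more, while 7 of the 8 Matrigel-only members lay at the edge of the large group.

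**Figure D1:**
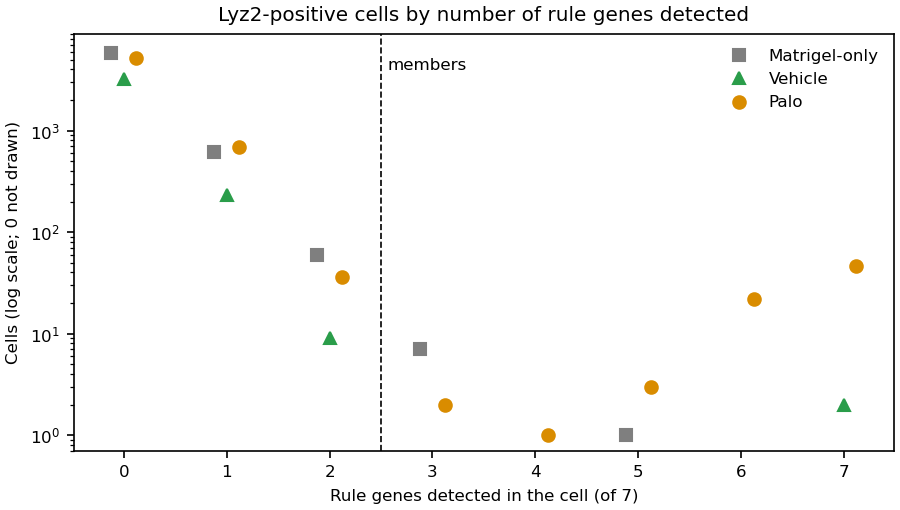
Number of Lyz2-positive cells (log axis) by the number of rule genes detected per cell, for the 3 libraries, with the members to the right of the dashed line. The Palo counts fall to 1 cell at 4 rule genes and rise to 46 at 7, and the Vehicle library has 2 cells at 7.

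Members made up 1.24% of the 5973 Lyz2-positive cells of the Palo library (exact binomial 95% interval 0.974% to 1.55%). The share was 0.124% (0.0537% to 0.245%) in Matrigel-only, with 8 of 6429 cells, and 0.0573% (0.00693% to 0.207%) in Vehicle, with 2 of 3493. With the requirement raised to 5 rule genes, a limit chosen after the values were seen, 71 Palo, 2 Vehicle and 1 Matrigel-only cells remained. When cells were thinned to 2600 UMIs before the rule was applied and shallower cells left out, the members were 66 of 4999 Lyz2-positive cells in Palo, 1.32% (1.02% to 1.68%). Vehicle then had 3 among 2199 such cells, 0.136% (0.0281% to 0.398%), while Matrigel-only had 2 among 3904, 0.0512% (0.0062% to 0.185%). Thinning left out a larger part of the other Lyz2-positive cells in Matrigel-only, 2506 of 6421, and in Vehicle, 1182 of 3491, than in Palo, 940 of 5899. The 84 members shared no cell barcode with each other across libraries, and none of their barcodes was found in another library. The drug, the library and the tissue taken with the pooled masses cannot be told apart in this excess.

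The rule genes themselves give the set its name. Alox15 (ENSMUSG00000018924; mm10 chromosome 11, 70344152 to 70352031, minus strand), the lipoxygenase that oxidises arachidonic and linoleic acid, ranged from 0 to 130 UMIs per 10000 over the 74 Palo members, with a median of 56.2. Its summed level was 5424 CPM (UMIs of the gene per 1000000 UMIs of those cells; exact Poisson 95% interval 5184 to 5674) against 2.77 CPM in the 5899 other Lyz2-positive Palo cells. Prg4 (chromosome 1, 150449412 to 150466165, minus strand), the lubricating proteoglycan of joint surfaces, ranged from 0 to 167 UMIs per 10000 with a median of 97.1, and reached 8667 CPM (8361 to 8980) against 0.851. No single cell carried these sums: the member with the most UMIs held 3.47% of those of Alox15 and 3.12% of those of Prg4. The other Lyz2-positive cells had a UMI of Alox15 in 1.07% and of Prg4 in 0.390% of cells.

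F5, coagulation factor V, was at 1496 CPM in members and 4.64 CPM in the other cells, and Selp, the adhesion receptor P-selectin, at 875 and 0.567 CPM. Icam2, a ligand for leukocyte integrins, was at 826 and 4.11 CPM. Cd5l, a secreted scavenger protein also called AIM, was at 1214 and 35.1 CPM, the smallest ratio of the 7 (4.93 on the log2 scale). Serpinb2, an inhibitor of urokinase, was at 524 and 0.922 CPM and was detected in 77.0% of members, against 89.2% or more for the other 6 rule genes. Together the 7 rule genes took 19026 CPM in members and 49.0 CPM in the others.

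To read each rule gene in cells that it had not helped to choose, the members were chosen again on the other 6 genes with at least 3 detected. Alox15 was then present in 97.3% of 74 cells (exact binomial 95% interval 90.6% to 99.7%), Prg4 in 98.6% of 73 and Cd5l in 98.6% of 73. F5 was present in 95.8% of 72, Selp in 90.5% of 74 and Icam2 in 89.0% of 73. Serpinb2 was the least frequent, in 76.7% of 73 (65.4% to 85.8%). The same shares among the remaining Lyz2-positive cells were 1.07%, 0.407%, 7.03%, 1.86%, 0.271%, 1.93% and 0.390% in that order, so each rule gene followed the other 6. These shares describe the same cells and share their library, and they are not an independent check.

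The 7 rule genes do not lie together in the genome, except for F5 and Selp. Selp spans 164115264 to 164150026 and F5 164151838 to 164220277 of mm10 chromosome 1, both on the plus strand, with a gap of 1.812 kb. The next gene after F5, the thiamine transporter Slc19a2, did not share the pattern, with 2.85 CPM in members and 2.27 in the others. Around Alox15, its relative Alox12e was at 0 in both groups of cells, and Pelp1 was at 88.3 and 22.9 CPM. Around Cd5l, Fcrls was at 137 CPM in members and 1316 in the others, a log2 ratio of -3.22, although it is the nearest gene on that side. Hmcn1 next to Prg4, Prr29 next to Icam2 and Serpinb7 next to Serpinb2 were at 0 in both, and Odr4, Ern1 and Serpinb8 were at 42.7, 57.0 and 105 CPM in members against 30.9, 17.1 and 26.3.

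Because Gata6 was among the transcripts of the members and the drug acts on a retinoid receptor, RefSeq promoters (GRCm38.p6, from 250 bases before to 50 after the start) were searched for short words of both kinds of factor. The table held 4 of the 7 rule genes, namely F5, Selp, Cd5l and Serpinb2. The GATA word was A or T, then GATA, then A or G, on either strand, and 30.2% of 27025 promoters held at least 1. The core word of the retinoid receptors was AGGTCA on either strand, found in 16.0% of promoters. The 3 promoters with a match follow, on the plus strand, with the matches in capitals: the GATA words in Cd5l and the core word in Selp and F5. They lie at chr3:87357631-87357930, chr1:164115014-164115313 and chr1:164151585-164151884.
Cd5l: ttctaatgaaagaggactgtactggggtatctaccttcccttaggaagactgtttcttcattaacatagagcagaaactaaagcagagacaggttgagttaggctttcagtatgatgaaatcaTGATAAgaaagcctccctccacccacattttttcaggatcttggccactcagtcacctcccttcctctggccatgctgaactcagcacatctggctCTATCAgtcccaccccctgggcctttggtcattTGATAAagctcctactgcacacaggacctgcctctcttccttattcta
Selp: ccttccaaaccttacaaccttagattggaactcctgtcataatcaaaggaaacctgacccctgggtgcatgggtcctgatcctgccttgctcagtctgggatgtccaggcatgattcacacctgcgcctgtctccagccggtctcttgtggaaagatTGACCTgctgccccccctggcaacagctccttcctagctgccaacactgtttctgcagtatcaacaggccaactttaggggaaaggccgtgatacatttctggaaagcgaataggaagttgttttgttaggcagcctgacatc
F5: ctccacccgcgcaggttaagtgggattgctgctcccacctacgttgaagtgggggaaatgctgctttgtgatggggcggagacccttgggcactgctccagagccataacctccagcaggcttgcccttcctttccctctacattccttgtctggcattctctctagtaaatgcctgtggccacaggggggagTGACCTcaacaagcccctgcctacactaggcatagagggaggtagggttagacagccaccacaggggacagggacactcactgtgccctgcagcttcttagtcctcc
Cd5l held 3 GATA words and no core word, Selp and F5 held 1 core word each, in the orientation TGACCT, and no GATA word, and Serpinb2 held neither. Over the list of peritoneal macrophage genes below, 6 of the 18 promoters in the table held a GATA word and 3 the core word, close to the shares of all promoters. The repeat of 2 core words with 5 bases between them, known as DR5, was in none of these promoters and in 0.0074% of all. A match is a description of letters in this window and says nothing on binding.

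Outside the rule genes, the members differed from the other Lyz2-positive cells in both directions. Of 3434 genes at 50 CPM or more in either group, 357 (10.4%) were at least 2-fold higher in members on the scale of CPM with 5 added, and 360 (10.5%) at least 2-fold lower. Over 10168 genes at 5 CPM or more, 822 (8.08%) were higher and 1070 (10.5%) lower, with a median log2 ratio of -0.02. Of the 1070 lower genes, 289 had no UMI in members and were less than 2-fold lower, or gave no fold, when 3 UMIs over the 74 cells were taken as the floor. All log2 ratios below are members over the other 5899 cells on that scale, which understates the change of genes near 0. Since sampling error alone can carry a gene of few UMIs past 2-fold in 74 cells, the counts of the gene lists are to be read beside these shares.

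**Figure D2:**
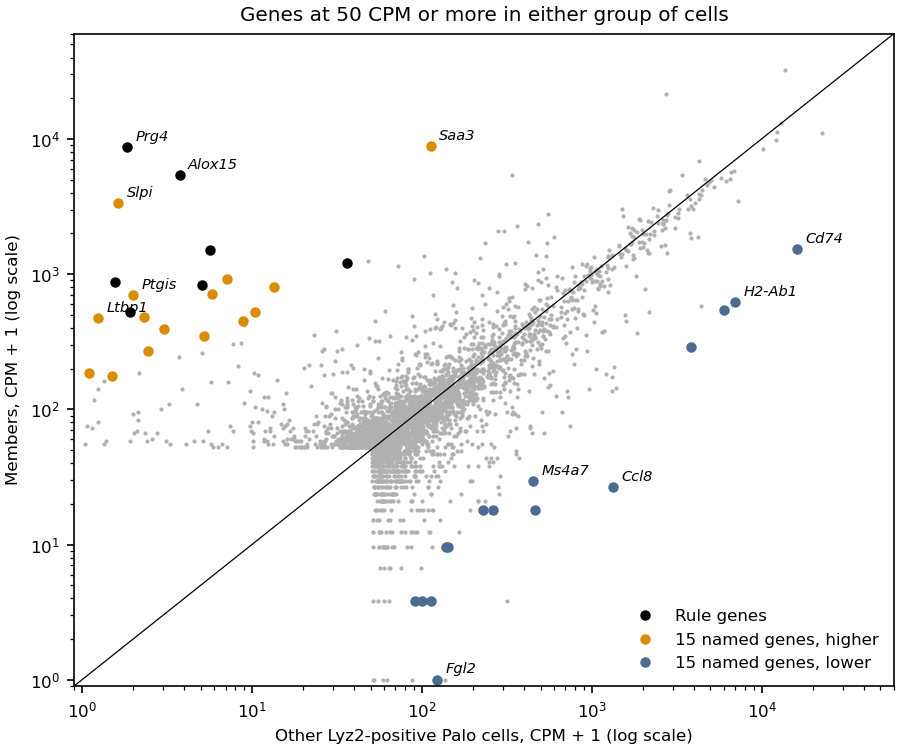
Summed level in members (y axis) against the other Lyz2-positive Palo cells (x axis), both as CPM with 1 added on log axes, for the 3434 genes at 50 CPM or more in either. Rule genes are black, the 15 named genes higher in members orange and the 15 lower blue; Slpi lies near the rule genes at 3362 against 0.638 CPM, and Ccl8 and Cd74 lie far below the line of equality.

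Of the list of 24 genes known from resident peritoneal macrophages, 23 were at least 2-fold higher in members and none was lower, with a median log2 ratio of 3.76 beside -0.02 over all genes. Gata6, the transcription factor known to direct this program, was at 140 CPM in members (103 to 185; 49 UMIs in 34 of 74 cells) and 0.248 CPM in the others. Timd4, a receptor for phosphatidylserine on dying cells, was at 422 CPM against 8.01, and Garnl3, a gene of unclear function that is known from these cells, at 242 against 2.73. Itga6, the integrin alpha 6 chain, was at 1142 CPM against 71.0, and Ednrb, the endothelin receptor B, at 1023 against 111. Klf4 was the one gene of the list between the limits, at 430 against 307 CPM. These ratios are against all other Lyz2-positive cells, and some were smaller against the Mmp12-led cells, a class of the same library described below. There F10 was at 313 CPM in 68.9% of cells, beside 396 CPM in 73.0% of members, and Klf4 was at 412 CPM. Gata6 and Timd4 were at 0.468 and 0.703 CPM in that class. The list was drawn up with earlier results of these cells known, so its count is not independent evidence of its direction.

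The list held several genes of secreted proteins, all higher in members. Fn1, which encodes the matrix protein fibronectin, was detected in all 74 members, from 49.8 to 360 UMIs per 10000 with a median of 232, and its summed level was 21519 CPM against 2739. Saa3, an acute phase protein, ranged from 0 to 488 UMIs per 10000 with a median of 75.1 and reached 8860 CPM against 112. Slpi, a secreted inhibitor of leukocyte proteases, was at 3362 CPM (3173 to 3559) against 0.638. Tgfb2 and Ltbp1, a growth factor and the protein that holds it in the matrix, were at 709 and 473 CPM against 4.79 and 0.248. Thbs1, thrombospondin 1, was at 917 against 6.17, and Lrg1, a secreted glycoprotein, at 1370 against 102.

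**Figure D3:**
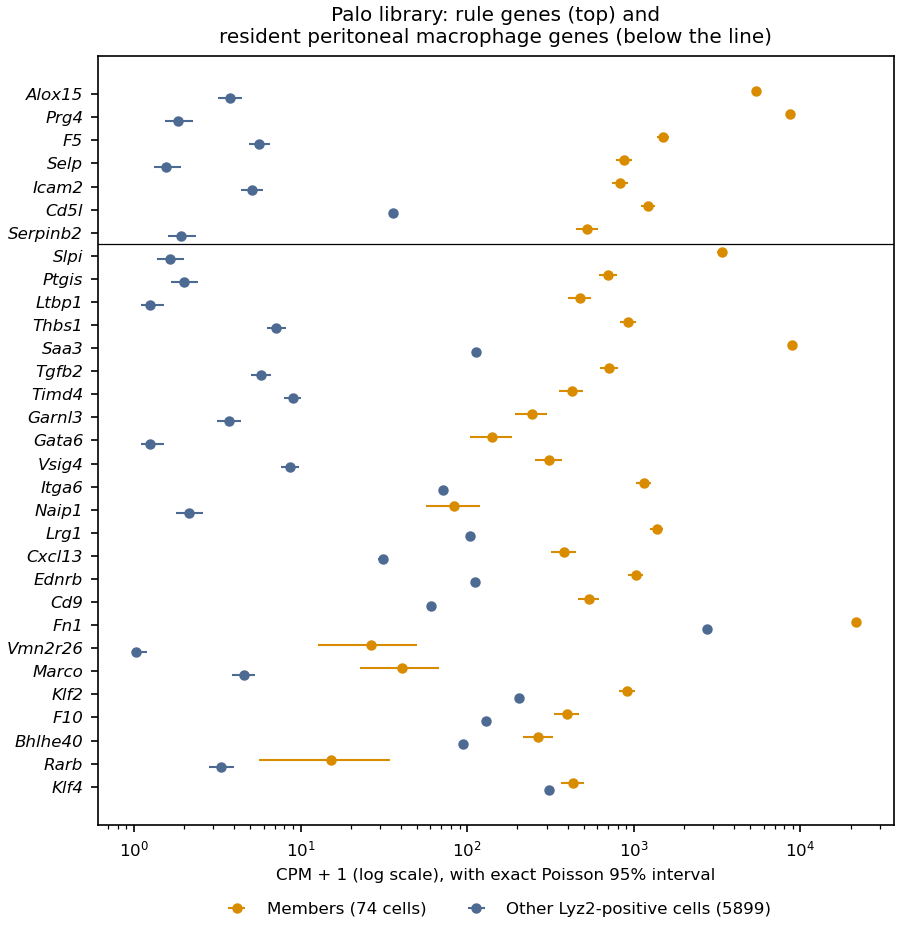
Level of the 7 rule genes and, below the line, the 24 genes of the resident peritoneal macrophage list in the Palo library, as CPM with 1 added on a log axis, with exact Poisson 95% intervals; where no bar shows it is shorter than the point. The members lie to the right for each gene, by the least for Klf4 (430 against 307 CPM).

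Outside the rule genes, the 15 named genes furthest above the other cells included several that no list held. Prtn3, a granule protease, was at 484 against 1.31 CPM, and Chil1, a chitinase-like lectin, at 393 against 2.02. Mcemp1, a membrane protein of myeloid cells, was at 521 against 9.47. Fabp7, a fatty acid binding protein, and Apoc1, an apolipoprotein, were at 268 and 447 against 1.45 and 7.87 CPM. Among the others were Loxl2, Wnt2 and Adgrl4, beside the peritoneal genes Slpi, Ptgis, Ltbp1, Thbs1, Saa3 and Tgfb2. Loxl2, an enzyme that crosslinks collagen, was at 348 against 4.22 CPM, and Wnt2, a secreted signal, at 185 against 0.106. Adgrl4, an adhesion receptor best known from blood vessels, was at 177 against 0.496 CPM. When the limit on stromal UMIs was dropped, stromal cells with a UMI of Lyz2 joined the comparison cells, and the members went from 74 to 76. The log2 ratio of Loxl2 then went from 5.26 to 0.88, under 2-fold, and that of Wnt2 from 5.22 to 2.89. That of Thbs1 went from 6.37 to 2.87 and that of Ptgis from 6.88 to 3.93. The part of the added cells in these changes was not tested.

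The genes most like Alox15 in pattern were taken as the 5 with the largest part of their UMIs, over all 5973 Lyz2-positive Palo cells, in the 74 members, among genes outside the rule at 50 CPM or more in members. They were Slpi with 98.5%, Ltbp1 with 96.0%, Wnt2 with 95.6%, Ptgis with 89.8% and Nt5e with 89.1%. Nt5e encodes the surface enzyme CD73, which makes adenosine, and was at 117 against 0.177 CPM. These shares were computed over the cells of 1 library and all rest on the same 74 cells. Ptgis and Ltbp1 were also found in stromal cells of the same library, at 161 and 42.0 CPM.

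Lipid mediator genes were more often higher than lower, beside 8.08% higher and 10.5% lower over all genes measured. Of 13 measured, 7 were at least 2-fold higher in members and 2 lower, of which Hpgd had no UMI in members, with a median of 1.83, or 0.58 when the limit on stromal UMIs was dropped. Without Alox15, which chose the cells, 6 of 12 were higher and 2 lower, with a median of 1.11. Ptgis, which makes prostacyclin, was at 701 CPM (616 to 794) against 0.993, and Ptgs1, the constitutive cyclooxygenase that feeds it, at 353 against 22.3. Ltc4s, which makes leukotriene C4, was at 917 against 88.7, Alox5, the first enzyme of that route, at 185 against 48.5, and Pla2g7, which degrades platelet activating factor, at 860 against 212. Hpgds, the synthase of prostaglandin D2, was lower at 11.4 against 78.2, and Hpgd, which inactivates prostaglandins, was at 0 against 12.3, at least 1.44-fold lower with a floor of 3 UMIs over the 74 cells, so a 2-fold difference was not shown for it. Ptgs2, the inducible cyclooxygenase, was at 0 UMIs in members and 1.81 CPM in the others.

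Coagulation and fibrinolysis genes moved both ways, beside 8.08% higher and 10.5% lower over all genes. Of 15 measured, 7 were higher and 3 lower, with a median of 0.62. It changed sign to -0.34 when the limit on stromal UMIs was dropped, which added stromal cells to the comparison. Without F5 and Serpinb2, which chose the cells, 5 of 13 were higher and 3 lower. These 5 were F10, the factor X that acts with factor V, at 396 against 129 CPM, Pros1, the anticoagulant protein S, at 345 against 79.7, Thbd, thrombomodulin, at 48.4 against 7.37, Tfpi, the tissue factor pathway inhibitor, at 25.6 against 7.48, and Plaur, the urokinase receptor, at 159 against 73.3. F10 was also at 313 CPM in the Mmp12-led cells. F13a1, the clot crosslinking factor XIII chain that marks connective tissue macrophages, was lower at 182 against 1212 CPM. Anxa2, a plasminogen receptor, was also lower at 353 against 929.

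Adhesion genes were more often higher than lower, beside 8.08% higher and 10.5% lower over all genes. Of 14 measured, 9 were at least 2-fold higher and 2 lower, with a median of 1.70. Without Selp and Icam2, which chose the cells, 7 of 12 were higher and 2 lower, with a median of 1.44. Itgam and Itgb2, the chains of the integrin Mac-1, were detected in all 74 members and reached 2288 and 1718 CPM against 364 and 419. Selplg, the ligand of P-selectin, was at 786 against 246, Itgb1 at 960 against 282 and Itgb7 at 211 against 20.7. Itgax, the integrin chain of CD11c, was lower with 1 UMI in members, 2.85 against 112 CPM, and Icam1 was lower at 31.3 against 120. The log2 ratio of Itgax fell short of 2-fold with at least 2 rule genes required, at -0.19, and against tissue-type macrophages only, at -0.76. Its level was 8.28 CPM in tissue-type macrophages and 427 in the Mmp12-led cells, a class of the same library chosen on Mmp12, Ear2, Dcstamp and Itgax itself.

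Against all other Lyz2-positive cells, complement and clearance genes were also more often higher than lower, beside 8.08% higher and 10.5% lower over all genes. Of 11 complement genes measured, 6 were higher and 1 lower, with a median of 1.25 that changed sign to -0.19 when the comparison was made with tissue-type macrophages only. C4b was at 5453 CPM against 340, Cfp, properdin, at 2792 against 549 and C3 at 202 against 19.1. C1qa, C1qb and C1qc, the subunits of C1q, lay within 2-fold, at 2638, 1644 and 1379 CPM against 3101, 2698 and 1749. Of 12 genes for the clearance of dying cells, 8 were higher and 2 lower, with a median of 1.54. Without Cd5l, which chose the cells, 7 of 11 were higher and 2 lower, with a median of 1.49. Beside Timd4, Cd36 was at 265 against 74.6 and Mertk at 94.0 against 38.6, while Stab1 and Gas6 were lower at 74.1 and 31.3 against 433 and 289 CPM.

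The members had lower levels of most genes that mark the connective tissue macrophages of the same library. Of 13 tissue-type macrophage genes, none was 2-fold higher and 12 were 2-fold lower, with a median of -2.84. Ccl8, a chemokine, had 9 UMIs in 7 members, 25.6 CPM (11.7 to 48.7) against 1328, the smallest ratio of the named genes. Ccl12 was at 17.1 against 460, Ms4a7 at 28.5 against 453 with 8 of its 10 UMIs in 1 cell, and Mrc1, the mannose receptor, at 174 against 1310. Cd163, the haemoglobin scavenger receptor, had no UMI in the members, at least 10.1-fold below the others when 3 UMIs over the 74 cells are taken as the floor. Not all of the lower genes were rare in members. Selenop was at 781 against 2056 CPM, in 87.8% of members and 80.9% of the others. Maf was in 47.3% and 64.9% of cells, and Cbr2 in 33.8% and 51.0%. Pf4 was the 1 gene of the list within 2-fold, at 766 against 904 CPM.

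All 8 genes of MHC class II presentation were at least 2-fold lower in members, with a median of -3.19. Cd74, the invariant chain, was at 1530 CPM against 16172, H2-Ab1 at 624 against 7015, H2-Aa at 538 against 6049 and H2-Eb1 at 291 against 3843. Ciita, which switches these genes on, was at 22.8 against 169. The level was carried by few cells: Cd74 was at 0 in 46 of 74 members, 17 had 1 UMI, and 1 cell held 249 of the 537 UMIs. H2-Aa was at 0 in 49 members, and 1 cell held 88 of 189. The list median was -0.93, under 2-fold, with at least 2 rule genes required and -4.09 with at least 4. Against tissue-type macrophages only, which had 6594 CPM of Cd74, it was -1.71.

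Genes of alternative activation were low as well, and those of recruited macrophages were mixed, beside 8.08% higher and 10.5% lower over all genes. All 6 alternative activation genes measured were 2-fold lower, with a median of -2.67. Retnla, a secreted protein of alternatively activated macrophages, was at 0 in 58 members, and 1 cell held 160 of the 202 UMIs, for 575 CPM against 4375. Il4ra, the interleukin 4 receptor chain, was at 103 against 339 and Clec10a, a lectin, at 42.7 against 256. Of 8 recruited macrophage genes measured, 3 were higher, namely Ltc4s, Thbs1 and Vcan, and 4 lower, with a median of -0.41. Of the 15 UMIs of Vcan, 13 were in 1 member, and it was detected in 4.05% of members and 3.46% of the others. Ccr2, the receptor that draws monocytes from blood, was detected in 16.2% of members, at 199 against 1063 CPM, and Plac8 was at 11.4 against 90.4. Of 6 genes of the Mmp12-led cells, 5 were lower, and Itgb7 was higher.

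Among 16 chemokine genes, 4 were higher and 9 lower, with a median of -1.41, or 8 lower and -1.09 with genes at 0 UMIs in members set to their floor. Over all genes, 8.08% were higher and 10.5% lower. Cxcl13, which attracts B cells, was at 379 against 30.2 CPM but came from 20 of 74 members. Cxcl2 and Cxcl1, which attract neutrophils, were at 1188 and 122 against 312 and 29.7. Cxcl2 was at 0 in 37 of 74 members, and 5 cells held 52.0% of its UMIs. Cxcl1 came from 12 members, and Cxcl12 had 7 UMIs. Ccl2, Ccl7 and Ccl4 were lower at 42.7, 11.4 and 11.4 against 277, 165 and 86.3, and Ccl5 was at 0 against 23.3. Ccl6 was found in all 74 members at 1427 against 2183 CPM, within 2-fold.

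The rest of the 15 named genes at the low end belonged to no common list. Fgl2, a prothrombinase-like protein, had no UMI in the members and was at 122 CPM in the others, at least 14.3-fold lower by the same floor. Cx3cr1, the fractalkine receptor, had 1 UMI, 2.85 against 99.1 CPM, and Ighm had 1 UMI, 2.85 against 90.3. Plbd1 was at 17.1 against 263, Fcgr1, the high-affinity IgG receptor, at 17.1 against 230, Tnip3 at 8.55 against 141 and Basp1 at 8.55 against 137 CPM.

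Genes of the retinoid pathway were followed because the mice of this library received a retinoid. Members and comparison cells both came from these treated mice, so the ratios do not compare treated with untreated cells. Of 10 measured, 2 were higher and 1 lower, with a median of 0.46 that ranged from -0.16 to 0.82 over the alternatives. Over all genes, 8.08% were higher and 10.5% lower, so the count of lower genes was near that share. Cyp26a1, which degrades retinoic acid and is a known target of its receptors, had 8 UMIs in 5.41% of members, 22.8 CPM against 0.177. Of these 8 UMIs, 4 were in 1 cell. Rarb, another known target, had 5 UMIs in 4 members, 14.2 CPM (4.63 to 33.2) against 2.34. It was detected in 5.41% of members and, at 6.32 CPM, in 4.10% of the Mmp12-led cells. Dhrs3, which reduces retinal, was at 416 against 273, and Rarg, the receptor that palovarotene activates, at 54.1 against 28.2, both within 2-fold. Aldh1a2, which makes retinoic acid, was at 0 in members and 19.0 CPM in the others. With few UMIs per gene, the counting intervals of the log2 ratio included 0 for Rara, Rxra, Rxrb, Rdh10 and Tgm2. Those of the genes named above did not, with 0.09 to 1.52 for Rarg and 0.27 to 2.49 for Rarb.

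Of 15 glycolysis and hypoxia genes, 7 were 2-fold lower, 7 lay within 2-fold and 1 was higher, with a median of -0.99. With a gene at 0 UMIs in members set to its floor, 6 were 2-fold lower and the median was -0.97. The shares over all genes were 8.08% higher and 10.5% lower. Pgk1, a glycolytic kinase, was at 94.0 against 509, Ndrg1 at 19.9 against 145 and Ankrd37 at 8.55 against 81.2 CPM, while Gapdh was at 1496 against 2120 and Hk2 at 62.7 against 67.5. Egln3, an oxygen sensor, was the higher gene at 28.5 against 2.38 CPM, from 10 UMIs. None of 10 cell cycle genes passed 2-fold, with a median of 0.28, and Mki67 was detected in 3 of 74 members. Of 12 immediate early and heat shock genes, known to respond to cell handling and listed after the values were seen, 2 were higher and none lower, with a median of 0.26. These were Egr1 at 171 against 70.1 and Hspa1a at 174 against 74.1 CPM.

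**Figure D4:**
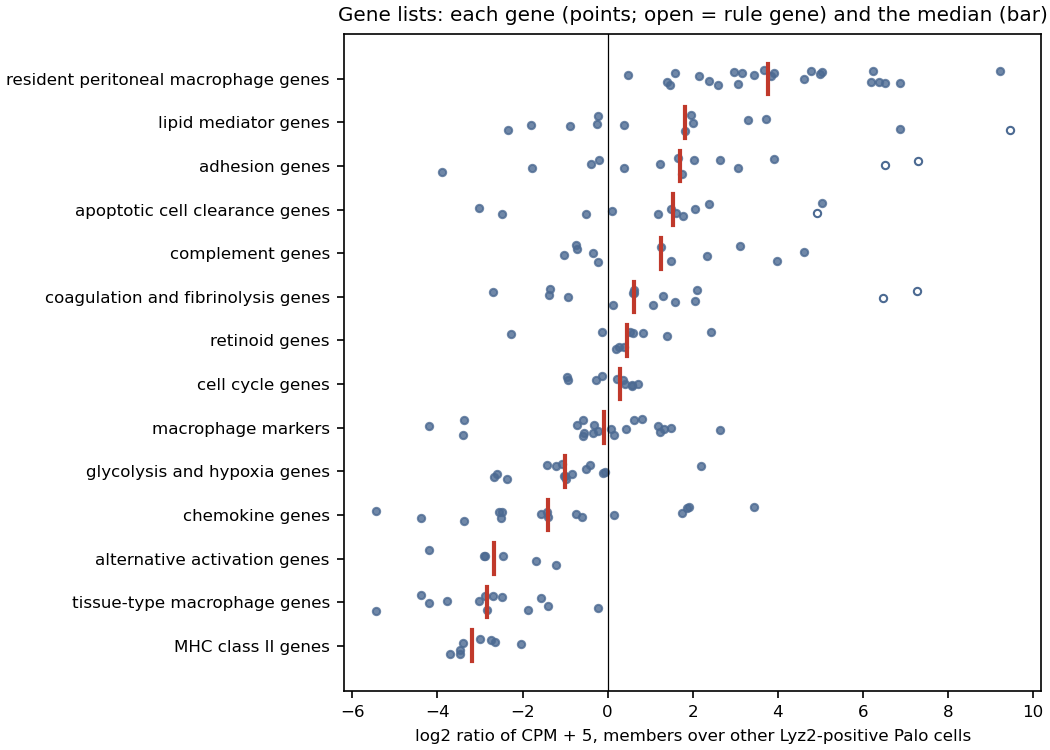
Log2 ratio of members over the other Lyz2-positive Palo cells, with 5 CPM added, for each measured gene of 14 lists (points, open for rule genes) and the list median (red bar). The resident peritoneal list has its median at 3.76, and the MHC class II and tissue-type lists have theirs at -3.19 and -2.84.

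The label of macrophage was checked on 20 markers. Of these, 17 were detected in at least 10% of members, with Lyz2, a lysozyme, at 32333 CPM against 13686, Adgre1, the F4/80 antigen, at 1368 against 541, Csf1r, the receptor for the macrophage growth factor, at 556 against 826 and Cd68 at 350 against 517. The exceptions were Cd163 at 0 UMIs, Fcgr1 in 5.41% and Aif1 in 4.05% of members. The median log2 ratio of the list was -0.08, with 5 genes higher and 3 lower. The summed level of the 20 markers was 52419 CPM in members and 32093 in the others, and Lyz2, the most abundant in members, was required of every cell in both groups. Without Lyz2, 16 of 19 markers were detected in at least 10% of members, the sums were 20085 and 18407 CPM, and the median was -0.23.

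Markers of the other cell types known for rule genes were near 0. Alox15 is known from eosinophils, and of 8 eosinophil markers 7 were at 0 in the members, Siglecf, Epx and Prg2 included, with 2 UMIs of Cebpe as the rest. Selp and F5 are known from platelets, and all 8 platelet and megakaryocyte markers were at 0, Itga2b and Gp9 included. Icam2 and Selp are known from endothelium, of whose 8 markers 7 were at 0, with 1 UMI of Pecam1. All 12 mesothelial markers were at 0, Msln and Wt1 included, and so were all 8 T and NK cell markers. Of 7 mast cell and basophil markers beside Hdc, which was at 68.4 against 1.10 CPM, none had a UMI.

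Of 7 neutrophil markers, 4 were at 0 in members, among them S100a9 and Ly6g, which were also near 0 in the others, at 2.30 and 0 CPM. Of the 3 measured at 5 CPM or more, 2 were 2-fold higher and none lower, with a median of 1.53 and a summed level of the 7 markers of 165 against 40.9 CPM. These were Csf3r at 131 against 28.5 CPM and Mmp9 at 25.6 against 5.64, in 9.46% and 1.68% of cells, while S100a8 was at 8.55 against 3.79 from 3 UMIs. The part of neutrophil RNA in the results was not tested. Of 8 B cell markers 5 were at 0, with 3 UMIs in all. Of 7 conventional dendritic cell markers, 6 were at 0. Of 10 stromal markers, 5 were at 0 in members and the list summed to 308 CPM against 381 in the others, led by Col1a2 at 105 against 109, with none 2-fold higher. The rule held Col1a1, Col1a2, Col3a1, Dcn and Lum to under 1% of UMIs in both groups, so their low levels were set by it. Where a zero is given, 3 UMIs over the members correspond to 8.55 CPM, and a lower level was not detectable at this depth.

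Prg4 is also known from fibroblasts, so it was read with Alox15 in other cell types of the libraries. In Palo stromal cells, chosen as cells with at least 1% stromal UMIs, Prg4 was at 24.5 CPM, in 7.77% of 1184 cells, and Alox15 at 3.92 CPM, in 0.676%. Of the Palo T cells, taken as cells with a Cd3 UMI and without Lyz2, none of the 30 had a UMI of Alox15 or Prg4, with an upper bound of 61.0 CPM for each. After thinning to 2600 UMIs, with 68 members and 4959 other cells deep enough, the expected share with Alox15 was 97.0% of members and 0.531% of the others. For Prg4 it was 97.7% and 0.239%, and 2.72% of the stromal cells. The members were above all of these levels for both genes, but both helped to choose them, so this was set by the rule.

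Depth and quality were set beside those of the other Lyz2-positive cells. The 74 Palo members had 1690 to 12058 UMIs with a median of 4452 and a median of 1808 genes, against medians of 4218 UMIs and 1690 genes in the other Lyz2-positive cells. The median mitochondrial share was 2.60% against 2.82% and the ribosomal share 14.6% against 15.9%. The median Lyz2 count was 150.5 UMIs against 52. Doublet scores by Scrublet had a median of 0.0302 in members and 0.0495 in the others, while 12 of 74 members (16.2%) and 5.76% of the others were among the highest scores called. With the called cells left out the tissue-type list had its median at -4.11, and the part of doublets in the high-scoring members was not tested.

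Some genes were found in nearly every member and others in a part of them. Of genes outside the rule, Fn1, Itgam, Tyrobp, Fcer1g and Ctsd had a UMI in all 74 cells, Lrg1 in 71 and Itga6 in 70. Slpi was at 0 in 28 members and had 10 UMIs or more in 22, up to 120 in 1 cell, so its detected share was 62.2% despite its high sum. Saa3 was at 0 in 5 and had 10 or more in 56. Vsig4, a complement receptor, was found in 23 members, Wnt2 in 25 and Gata6 in 34.

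The genes found in a part of the members overlapped one another incompletely. Of the 46 members with Slpi, 17 had Vsig4, 37.0%, against 21.4% of the 28 without. Of the 23 with Vsig4, 12 had Gata6, 52.2%, against 43.1% of the 51 without. Of the 25 with Wnt2, 23 had Timd4, 92%, against 77.6% of the 49 without. Other pairs went the other way. Gata6 was in 43.5% of members with Slpi and 50% of those without. Timd4 was in 78.3% of members with Vsig4 and 84.3% of those without. H2-Aa was found in 23.9% of members with Slpi and 50% of those without, and Cd74 in 39.1% and 35.7%. Some pairs with Ccr2 differed more. Of the 12 members with Ccr2, 10 had H2-Aa, 83.3%, against 24.2% of the 62 without. Cd74 was in 75% and 30.6%, and F13a1 in 50% and 3.23%. Chil1 went the other way, in 16.7% of members with Ccr2 and 69.4% of those without, as did Cxcl13, in 0% and 32.3%. These are counts over cells of 1 library, and detection in each depends on depth.

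**Figure D5:**
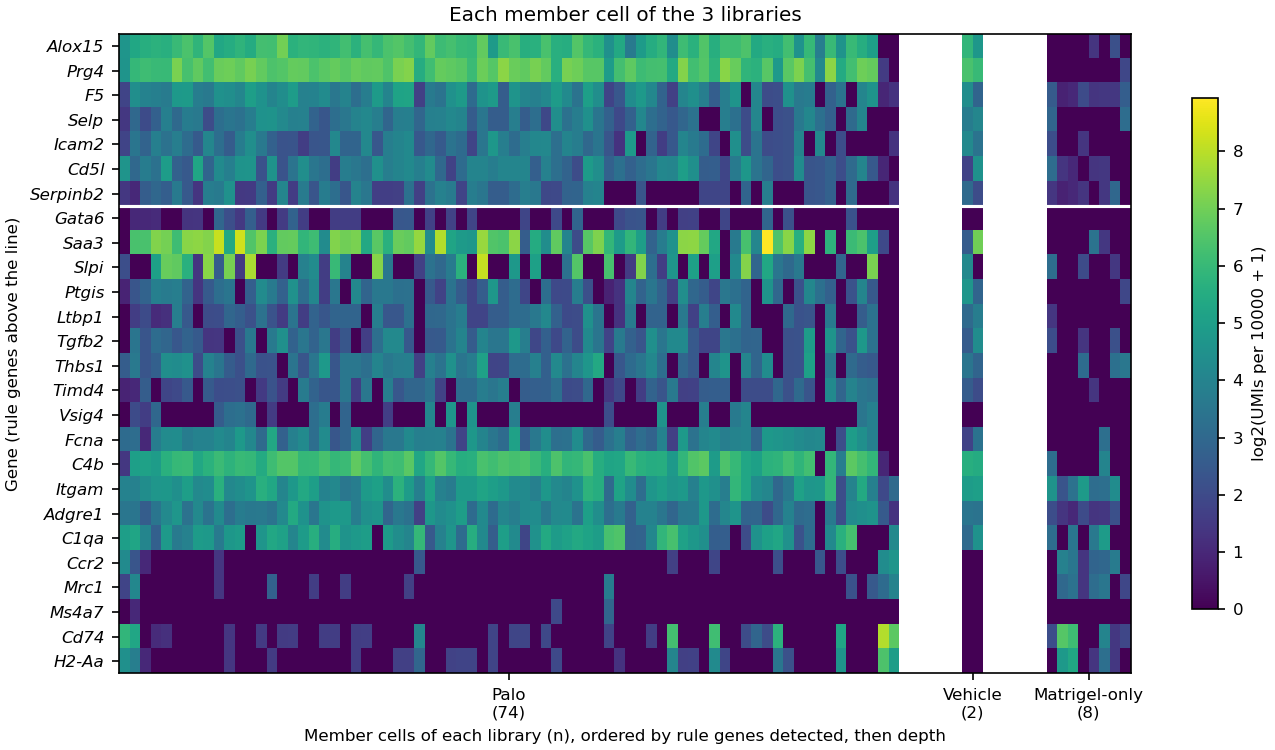
Each member as a column, in blocks for Palo (74), Vehicle (2) and Matrigel-only (8), with genes as rows and log2 of UMIs per 10000 plus 1 as colour. Most Palo columns and both Vehicle columns carry the rule genes with Saa3, Ptgis and C4b, the last 2 Palo columns carry 3 rule genes each at 0.968 to 1.94 UMIs per 10000 beside high Cd74 and H2-Aa, and the Matrigel-only columns are sparse in Alox15 and Prg4.

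The members with many rule genes, those just inside the rule and the cells just outside it were set side by side. The 46 members with all 7 rule genes and the 22 with 6 had Saa3 in 45 and 20 cells, Ptgis in 41 and 20 and Fcna, a ficolin, in 46 and 21. The 2 Palo members with 3 rule genes had 249 and 68 UMIs of Cd74 and none of Ptgis, Ltbp1 or Gata6. The member with 4 had 7 UMIs of Alox15, 24 of Prg4 and 30 of Slpi, and none of Cd74. The 36 Palo cells with 2 rule genes, just outside, had no UMI of Gata6, Ptgis, Ltbp1, Slpi or Timd4, and at most 1 UMI of Prg4 in any cell. In those 36 cells Cd74 was at 17185 CPM, and Cd5l was the rule gene most often found, in 27.

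The 2 Vehicle members carried most of the genes that marked the Palo members. They had 3132 and 3999 UMIs, and both had all 7 rule genes, with 8 and 23 UMIs of Alox15 and 20 and 33 of Prg4. Saa3 had 40 and 2 UMIs, Ptgis 2 and 10, Ltbp1 4 and 3, Tgfb2 6 and 2 and Slpi 0 and 7, and neither had a UMI of Cd74. Their summed Alox15 was 4347 CPM (2954 to 6171) and Prg4 7432 (5567 to 9722), beside 5424 and 8667 CPM in the Palo members, and both are genes that chose the cells. Gata6 had no UMI in the Vehicle pair, with an exact upper limit of 517 CPM, so the 140 CPM of the Palo members was not detectable there. Both Vehicle cells were among the highest doublet scores of their library.

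The 8 Matrigel-only members had fewer rule genes. Of these, 7 had 3 rule genes, at 1 to 4 UMIs each, with F5 in all 7, Serpinb2 in 5 and Cd5l in 4. Alox15 was found in 2 of the 8 cells and Prg4 in 1. Their summed Alox15 was 53.5 CPM (11.0 to 156) and Prg4 17.8 (0.452 to 99.4), beside 5424 and 8667 CPM in the Palo members, and both are genes that chose the cells. Cd74 was at 3568 CPM, with most of its UMIs in 2 cells of 3 rule genes each, which held 120 and 67. The cell with 5 rule genes had 3 UMIs of F5, 4 of Selp and 5 of Cd5l, with 5 of Slpi, and none of Alox15 or Prg4. Fn1 was high in the members of all 3 libraries, at 16752, 30991 and 21519 CPM in Matrigel-only, Vehicle and Palo.

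Alox15 was also found outside the members. In the other 3491 Lyz2-positive cells of the Vehicle library, it had 390 UMIs, 25.9 CPM, in 1.26% of cells, against 2.77 CPM and 1.07% in Palo and 1.79 CPM and 0.452% in Matrigel-only. Prg4 in the same cells was at 0.996 CPM in Vehicle, 0.851 in Palo and 1.10 in Matrigel-only. In stromal cells Prg4 was at 81.9 CPM in Vehicle, 24.5 in Palo and 26.5 in Matrigel-only.

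Macrophages of the same library chosen on other genes were set beside the members. The 1875 tissue-type macrophages, with at least 3 of Ms4a7, Ccl12, Stab1 and Ccl8, had Alox15 at 1.02 CPM, Gata6 at 0, Cd5l at 35.8, Itga6 at 118 in 38.0% of cells, and Fn1 at 466. The 585 Mmp12-led cells, with at least 3 of Mmp12, Ear2, Dcstamp and Itgax, had Alox15 at 6.32 CPM, Gata6 at 0.468, Cd5l at 7.73, Itga6 at 7.49 and Fn1 at 5802. Both classes held Prg4 below 3 CPM. Ednrb, at 1023 CPM in members, was at 187 in tissue-type and 10.5 in Mmp12-led cells, and Timd4, at 422, was at 10.2 and 0.703. Recruited macrophages of the library, whose values are not reported here, lay closer to the members for Ednrb, Timd4 and Cd5l.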

How the data were processed

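Matrigel masses of day 5 were measured by droplet RNA sequencing, 1 library per group. Reads were aligned to mm10 by the authors (Cell Ranger 3.0.2), who deposited whole UMI counts for each barcode. Seurat version 3 is named in their notes. The study's methods used limits on genes and mitochondrial share to leave out doublets and poor cells, and the same limits were applied here to the deposited barcodes. The 31053 genes were used with no correction, and UMIs of repeated symbols were taken as deposited.

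The members, the 27 gene lists and the comparisons were chosen with earlier results of these data known, and 1 list was added after the values were seen. UMIs were summed over cells and scaled to CPM of all UMIs of those cells. Exact Poisson and Clopper-Pearson intervals at 95% cover counting error only. No test was run, since a group is 1 library. The named genes were the rule genes, the listed genes described, the annotated neighbours of the rule genes, the 5 genes most like Alox15 and the 15 largest and 15 smallest log2 ratios. These last were taken among genes at 50 CPM or more that were detected in at least 20% of the cells in which they are higher, without mitochondrial, ribosomal and predicted genes. A few of the genes so chosen, and results that need them, are not reported here. Positions are from GENCODE vM21. Thinned shares use the hypergeometric formula. No further doublets were removed in the main values. Scrublet's own threshold called 1, 3 and 0 cells, so calls were set to the top-scoring 0.8% per 1000 cells, which gave 609, 240 and 426. The scripts were tested on simulated data. Python 3.11.15, numpy 2.4.6, scipy 1.17.1, pandas 2.3.3, matplotlib 3.10.9, scanpy 1.11.5 and edgeR 4.0.16 in R 4.3.3 were used.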

Additional observations from a re-analysis of the deposited data

Results flagged for a closer look

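In the Palo library, 4 barcodes outside the cell limits had at least 5 of the 7 rule genes and so lay outside the main measurement. Of these, 1 had 5.39% mitochondrial UMIs, 2 had 4.15% and 8.26% stromal UMIs, and 1 had no UMI of Lyz2. That last barcode had all 7 rule genes, with 10 UMIs of Alox15 and 58 of Prg4. The Vehicle library had 1 such barcode, with all 7 rule genes, 29 UMIs of Alox15 and 5.03% mitochondrial UMIs, and the Matrigel-only library had 0.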

How the results depend on the processing

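The Palo member count was within 1.5 times 74 under all 8 alternatives, from 62 to 110. The Matrigel-only count was 68 with at least 2 rule genes, 1 with at least 4 and with at least 5, and 2 after thinning, and the Vehicle count was 11 with at least 2 rule genes and 0 without Scrublet calls. Genes 2-fold higher and lower were 183 and 124 with at least 2 rule genes, and 558 and 611 with a minimum of 20 CPM. With at least 2 rule genes the medians were 3.05 for peritoneal, -1.60 for tissue-type, -0.93 for MHC class II and 1.25 for adhesion genes. With at least 4 and at least 5 the MHC class II median was -4.09 and -4.08. Dropping the limit on stromal UMIs also let stromal cells with Lyz2 into the comparison. The medians were then 0.22 for macrophage markers, -0.34 for coagulation, 0.58 for lipid mediator and 1.43 for adhesion genes. Against tissue-type macrophages only they were 4.49 for peritoneal, -3.82 for tissue-type and -1.71 for MHC class II genes, and complement genes changed sign to -0.19. With 1 CPM added the peritoneal median was 4.34. Without Scrublet calls the tissue-type median was -4.11, after thinning -3.80, and by the mean of cells -3.60; for MHC class II genes thinning gave -4.33 and the mean of cells -3.65. Chosen on at least 2 of the other 6 rule genes, the shares were 71.3% for Alox15, 69.5% for Prg4, 69.6% for F5, 62.6% for Selp, 69.5% for Icam2, 88.0% for Cd5l and 54.3% for Serpinb2. With rule genes left out of the list, an alternative chosen after seeing the data, the adhesion median was 1.44. The other 122 list medians computed moved by less than their intervals, and of the ratios of named genes 470 did and 167 did not, with none changing sign. Under 2-fold fell Loxl2 with no limit on stromal UMIs (0.88), Itgax (-0.19), H2-Ab1 (-0.95), Tnip3 (-0.95), Cd74 (-0.98), Adgre1 (0.79) and Lyz2 (0.89) with at least 2 rule genes, and Itgax (-0.76) and Adgre1 (0.71) against tissue-type macrophages only. The causes were not tested. No paired analysis was possible because each group is 1 library. The at least 5 limit was chosen after seeing the data. Depth limits statements on genes under 8.55 CPM in members.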
